A study of Drosophila sechellia and Drosophila simulans with 8 samples.

Results

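Bodies of adult Drosophila simulans females held with a choice were compared with bodies of females of the same species held without one, where the choice concerned a blend of octanoic and hexanoic acid. The comparison takes 4 of the 8 arrays of the series, 2 of choice and 2 of no choice; its members were chosen by the array titles alone and no measured value entered. All 18769 probe sets other than the manufacturer's controls were compared. The 4 other arrays hold D. sechellia under the same pair of treatments and serve below to ask whether a difference was larger in simulans. Every group was reared at 25 °C on an agar, yeast and cornmeal food, and cRNA was made from 7 µg of total RNA. The labels name no strain, age, number of flies, length of treatment or set of alternatives in the choice, so the groups are described here only as choice and no choice. They number the arrays of a group 1 and 2 without saying whether these are separate flies, so the p-values cover only how far these samples vary, possibly for technical reasons.

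Octanoic and hexanoic acid are the main volatile acids of ripe Morinda citrifolia fruit, to which D. sechellia is adapted and which is toxic to D. simulans, a generalist. In flies, bacterial cell wall fragments and fungi switch on antimicrobial peptide genes in the fat body and the gut through the Imd and Toll pathways, and Turandot genes respond to many kinds of stress. In the ovary, follicle cells secrete the eggshell in sequence, first the vitelline membrane and then the chorion, so transcripts of these genes follow the stages of the follicles a female carries. Maltases and Jonah proteases are digestive enzymes of the midgut.

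Signal is the linear probe-set intensity deposited for each array. The 4 arrays had median signals of 110.7 to 120.2, and the Bacillus spike-in probe sets, which match no fly RNA and serve as background, had medians of 12.3 to 17.7. Pearson correlation of log2 signal over all probe sets was 0.953 between the no choice arrays and 0.953 between the choice arrays, against 0.942 to 0.949 between groups. These arrays carry D. melanogaster probes; both sides of the comparison are the same species, and gene symbols follow the array's D. melanogaster annotation. The markers of a female body were strong on all 4 arrays, with yolk protein and eggshell markers Yp1, Yp2, Yp3, Vm26Aa and Cp36 at signals of 16583 to 30676. Of the defining markers of eye tissue, ninaE and ninaC were not matched to a probe set, and trp lay at 4.7 to 8.9, below background. Arr2 lay at 41.5 and 103 without choice and 280.4 and 262 with choice. For Arr1 the signals were 116.5 and 110.1 without choice and 146.7 and 160.3 with choice. The summed signal of 13 head and eye genes was 1249 and 1064 in no choice and 1351 and 1569 in choice. That of 17 neuronal genes was 2649.6 and 2830.0 against 3357 and 3205. The groups did not overlap in either sum. Sums were separate in most of the 42 gene lists used below, so this was the usual outcome. Examples are Jonah proteases (62451 and 65875 against 69430.2 and 70144.5) and glutathione transferases (47378.4 and 49225.5 against 46576.9 and 45927). The part of head and neuronal genes in the results below was not tested. The 8 single male markers matched here read at most 165. In whole bodies, fewer cells of a type and less RNA per cell cannot be told apart.

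Few probe sets passed the test, and among those with a symbol the antimicrobial peptide gene Mtk had the largest difference. Of 18769 probe sets, 6 (0.0320%) were called at a Benjamini-Hochberg adjusted p below 0.05 by limma, 5 higher (0.0266%) and 1 lower (0.00533%) with choice; at an unadjusted p below 0.05 there were 2447 (13.0%), 1270 higher (6.77%) and 1177 lower (6.27%). Of 11982 genes, each taken at 1 probe set, 3 were called (0.0250%), 2 higher (0.0167%) and 1 lower (0.00835%), and 1739 (14.5%) had an unadjusted p below 0.05. The arrays of the groups were fully separated at 23.4% of probe sets with choice higher and at 21.1% with choice lower, and at 23.1% and 23.3% of genes. An exact permutation test of a single value in 2 against 2 arrays cannot give a two-sided p below 0.333, so calls rest on the spread that limma pools over all probe sets.

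Mtk encodes metchnikowin, an antibacterial and antifungal peptide. Its signal was 408 and 369.7 on the no choice arrays and 1939.5 and 1994 on the choice arrays. Both choice arrays lay far above both no choice arrays, and the difference between replicates was small beside it. Mtk rose by 2.34 ± 0.09 on the log2 scale (standard error, n = 2 arrays per group), which is 5.06-fold, with an adjusted p of 0.000407. A probe set that carries no symbol here rose more: 297 and 250.4 without choice and 2066 and 2126 with choice, 2.94 ± 0.11 on the log2 scale (adjusted p = 0.000407). Another probe set without a symbol read 323 and 230.5 against 1274 and 1115 and rose by 2.13 ± 0.17 (adjusted p = 0.0326).

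CG14125 rose from 196 and 169.7 to 578 and 686, a log2 difference of 1.79 ± 0.16 (adjusted p = 0.0326). One probe set that matches both CG10096 and CG10097, related genes that in D. melanogaster encode fatty acyl-CoA reductases, read 467 and 476 without choice and 1008 and 990.4 with choice. This signal, which cannot be divided between the genes, did not overlap between groups and rose by 1.08 ± 0.09 on the log2 scale (adjusted p = 0.0326). The single called decrease was in Cth, cystathionine gamma-lyase, the enzyme that releases cysteine at the end of the transsulfuration pathway. Cth read 2346 and 2347 without choice and 1331 and 1376 with choice, and fell by 0.79 ± 0.07 on the log2 scale (adjusted p = 0.0326). The groups did not overlap in any of the 6, which adds nothing to calls made from the same values. With any 1 of the 4 arrays left out, Mtk and the unnamed probe set with the larger rise were still called, the other unnamed one was called once, and CG14125, the CG10096 and CG10097 probe set and Cth were not called. Without an intensity trend in the variance none of the 6 passed, with 1720 probe sets at an unadjusted p below 0.05 and adjusted p of 0.259 for Mtk.

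**Figure D1:**
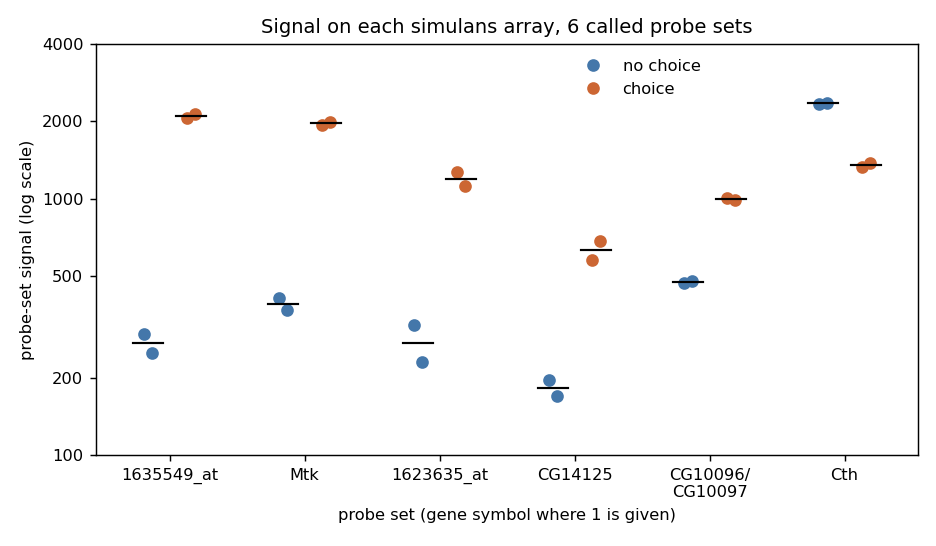
Signal of the 6 called probe sets on each of the 4 simulans arrays, on a log axis; points are arrays and bars are geometric means of 2 arrays. The choice points of Mtk and of the unnamed probe set with the larger rise lie between 1939.5 and 2126, all above the no choice points at 250.4 to 408, and Cth is the only probe set with choice below no choice.

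How many probe sets passed depended on whether the dimmest ones were tested. With the dimmest 30% left out, those under a geometric mean signal of 39.6, the same fit called 18 of 13138 probe sets, 13 higher and 5 lower, among them the 6 above. All the named additions except CG5011 were bright genes with differences under 1 on the log2 scale. Nplp2, a neuropeptide-like precursor, read 5299 and 4617 against 8254 and 8233 (0.74 ± 0.08). AGBE, the glycogen branching enzyme, read 897 and 846 against 1434 and 1437 (0.72 ± 0.08), and Gpdh1, the cytosolic glycerol-3-phosphate dehydrogenase, 3289 and 3848 against 5731 and 6000.0 on 1 of its 4 probe sets (0.72 ± 0.09). The other probe sets of Gpdh1 differed by 0.17, 0.0058 and -0.01 and were not called. Map60, a microtubule-associated protein, Prosap, a synaptic scaffold protein, and CG5011 were higher as well, by 0.55, 0.73 and 2.42. The decreases were in p47, a cofactor of the ATPase TER94 (-0.65 ± 0.07), gpp, a histone H3 lysine methyltransferase (-0.64 ± 0.07), and yellow-g, an eggshell gene (-0.54 ± 0.06). All differences here are on the log2 scale, choice minus no choice; over all probe sets tested the adjusted p of these 9 genes was 0.0819 to 0.105.

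Beyond the calls, 338 of the 13138 brighter probe sets were at least 2-fold higher and 300 at least 2-fold lower with choice. Counting only those with both arrays of the higher group at a signal of 100 or more, 115 were higher and 81 lower. Scatter between replicates grew steeply as signal fell: the median absolute log2 difference between replicate arrays was 0.0680 in the brightest 10% and 0.762 in the dimmest 30%. The plot of difference against mean signal shows the same narrowing over the 4 arrays. Probe sets of 1 gene often disagreed: over 481 genes with 2 probe sets outside the dimmest 30%, the log2 differences of the pair correlated at r = 0.042 across genes, which share the same 4 arrays, and 263 pairs had the same sign. A gene's value below is that of its brightest probe set.

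Genes with differences of at least 1 on the log2 scale and the next smallest p-values did not pass the test (limma adjusted p 0.101 to 0.167 for those higher). CG5011 read 49.8 and 50.7 against 297 and 244. CG15356 (47.2 and 55.9 against 204 and 271) and CG10147 (58.1 and 49.8 against 293 and 187) differed by 2.19 ± 0.33 and 2.12 ± 0.35. In each of these 3 both choice arrays exceeded both no choice arrays by several-fold. CG13324 and CG9641 differed by 1.35 ± 0.20 and 1.07 ± 0.16, with signals above 100 on every array. CG32829, CG2577 and Rbm13, an RNA-binding protein by its symbol, differed by 2.81 ± 0.48, 2.69 ± 0.57 and 1.72 ± 0.34. CG17760 lay below background on both no choice arrays (8.2 and 13.8) and at 109 and 145 with choice, a difference of at least 3.23 on the log2 scale when the low signals are raised to background.

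On the other side, only Cth passed, and 14 further genes were lower without passing (limma adjusted p 0.133 to 0.267). CG11584 read 154 and 171 without choice and 9.5 and 13.9 with choice, a difference of -3.82 ± 0.56. For bard the signals were 246 and 172 against 29.7 and 40.1 (-2.58 ± 0.41), and for KFase, kynurenine formamidase of tryptophan breakdown, 122 and 116 against 16 and 22.9 (-2.64 ± 0.53). All 3 had both choice arrays at less than 50. Their no choice arrays were above 100 because the naming rule required it. Diedel, a secreted immune regulator, read 174 and 161 against 87.9 and 57.9 (-1.23 ± 0.35). Ccp84Ae, a cuticle protein gene, read 182 and 397 against 67.5 and 57.7, so its no choice arrays differed from each other more than 2-fold. CG13046, CG15594, kek3, CG32214, SmydA-9, CG17803 and ntc differed by -2.41 to -1.12. Hmx, a homeobox gene, and Dscam1, a cell adhesion molecule of the immunoglobulin family, differed by -1.68 ± 0.28 and -1.54 ± 0.47 on their brightest probe sets, but their dimmer probe sets differed in the other direction, by 0.50 and 1.12 for Hmx and 0.71 for Dscam1. A second, dimmer probe set of CG15594 differed by 0.10, with overlapping groups.

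Immune effector genes did not move as one. Of 21 antimicrobial peptide genes, Mtk alone was called; at an unadjusted p below 0.05, 7 were higher and 2 lower, against 7.08% higher and 7.44% lower of all 11982 genes taken at 1 probe set each. The median difference was 0.17, against -0.0018 over all genes. Beside Mtk, the largest differences were in DptB, the diptericin B gene, a target of the Imd pathway, and in edin, a small secreted peptide gene induced by infection. DptB read 20.2 and 51.6 without choice and 276 and 303 with choice (3.16 ± 0.49, adjusted p = 0.133). For edin the signals were 8.0 and 22.9 against 265 and 189 (4.05 ± 0.64, adjusted p = 0.133); 1 of its no choice signals lay below background, and raising it to background gives a difference of 3.74. In both genes the groups were far apart, but the no choice signals were low and unlike each other.

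AttD, an attacin, read 54.3 and 70.6 against 113 and 120.5 (0.91 ± 0.38). The Bomanins, short peptides controlled by the Toll pathway, were split: BomBc2, BomS2 and BomS5 differed by 0.27, 0.45 and 0.17, whereas BomS6 and BomS4 differed by -0.25 and -0.20. Drs, the drosomycin gene and another Toll target, read 5439 and 5576 against 6088 and 5949.7 (0.13 ± 0.06), and Def, the defensin gene, 1034 and 979 against 555 and 923 (-0.49 ± 0.22). None of these 8 passed the test, and apart from AttD their differences were under 0.5 in size. Among 11 recognition genes, PGRP-SB1, a secreted peptidoglycan recognition protein that cleaves bacterial cell wall, read 298 and 254 against 514 and 592 (1.0 ± 0.15, adjusted p = 0.133). The remaining 10 had unadjusted p-values above 0.05 and differences between -0.92 (GNBP2) and 0.56 (PGRP-LA).

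Turandot genes encode small stress-induced proteins of the haemolymph. TotC read 69.6 and 94.0 without choice and 393 and 275 with choice (2.02 ± 0.29, adjusted p = 0.133), and TotE read 78.4 and 69.5 against 19.1 and 18.6 (-1.97 ± 0.57). These 2 of the 5 measured Turandot genes lay in opposite directions, and neither was called. Heat shock and chaperone genes gave 2 higher and 2 lower of 14 at an unadjusted p below 0.05, with a median of 0.04. These were 14.3% each, against 7.08% and 7.44% of all genes. Hsp110 differed by 0.25 ± 0.06, Hsp26 by 0.19 ± 0.08 and Hsp68 by -1.38 ± 0.56. No heat shock gene was called.

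**Figure D2:**
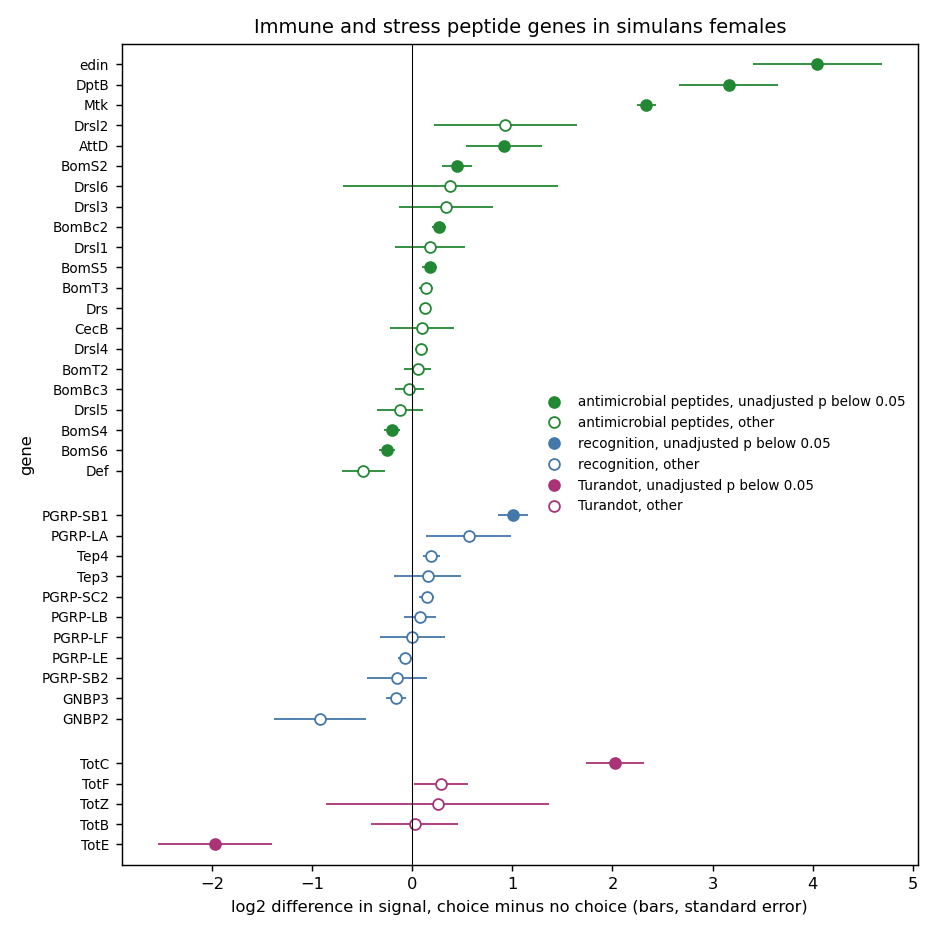
Log2 difference in signal, choice minus no choice, with its standard error, for 21 antimicrobial peptide genes, 11 recognition genes and 5 Turandot genes in simulans females. Filled points have an unadjusted p below 0.05; edin, DptB, Mtk and TotC lie above 2 and most others near 0, and Mtk is the one gene that passed the adjusted test.

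Genes for carbohydrate digestion leaned towards higher signal with choice, and none was called. Of 12 amylase and maltase genes, 5 had an unadjusted p below 0.05, all higher (7.08% of all genes were), and the median difference was 0.43. Over the 11 members at a signal of 100 or more the median was 0.26 without no choice array 2 and 0.52 without no choice array 1. Mal-B1 read 1708 and 1714 without choice and 2496 and 2403 with choice (0.52 ± 0.07, adjusted p = 0.119), and Mal-A1 read 981 and 962 against 1966 and 1548 (0.84 ± 0.12, adjusted p = 0.13). Both choice arrays exceeded both no choice arrays in 8 of the 12 genes, these among them, and lay below in 2. Of all genes, 23.1% and 23.3% were so separated. For tobi, an alpha-glucosidase gene regulated by insulin and glucagon-like signals, the values were 778 and 669 against 1027 and 1077 (0.54 ± 0.10), and Mal-A7 and Mal-A3 differed by 0.55 ± 0.13 and 0.43 ± 0.14. The 3 members below 0 were Mal-A2, Mal-B2 and Mal-A5, at -0.28, -0.08 and -0.02. The list takes only probe sets with 1 symbol, so a probe set that matches both Amy-p and Amy-d is outside it. That probe set read 841 and 752 without choice and 1379 and 1067 with choice (0.61 ± 0.13, limma adjusted p = 0.177).

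Jonah proteases, the chymotrypsin-like enzymes of the midgut, gave 5 higher and 0 lower of 13 at an unadjusted p below 0.05 with a median of 0.14. Jon25Bi read 6683 and 6816 against 7901 and 8370.4 (0.27 ± 0.07), Jon99Ci 496 and 480.4 against 652 and 642 (0.41 ± 0.10) and Jon66Ci 191 and 191 against 255 and 286 (0.50 ± 0.18). The groups were separate in all 3, which were named for small p-values, by small margins. Over the 13 genes, 6 were separate with choice higher and 1 with choice lower, against 23.1% and 23.3% of all genes. Among the 9 Greek-letter trypsins, lambdaTry differed by 0.31 ± 0.09 and the other 8 had unadjusted p-values above 0.05; the median was 0.12. Leaving out 1 array moved the trypsin median between 0.051 and 0.22, and that of the 12 Jonah genes at a signal of 100 or more between 0.088 and 0.16. All 6 acyl-CoA-binding protein genes, whose products carry activated fatty acids, had positive differences, 2 of them at an unadjusted p below 0.05 (Acbp3 0.24 ± 0.07 and Acbp4 0.61 ± 0.22). None of these genes was called by limma.

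Genes of insulin and nutrient signalling gave 5 higher and 3 lower of 22 at an unadjusted p below 0.05, none called. Over all genes, 7.08% were higher and 7.44% lower at that p. The gluconeogenic enzyme gene fbp, fructose-1,6-bisphosphatase, read 1385 and 1310.4 without choice and 910.4 and 1055 with choice (-0.46 ± 0.10). The activin-like ligand gene daw differed by -0.49 ± 0.15. ImpL2, which encodes a secreted binding protein that opposes insulin-like peptides, and the kinase gene Akt differed by 0.27 ± 0.07 and 0.61 ± 0.21. Among haemolymph protein genes, Lsp2, a storage protein of the fat body, read 272 and 287 against 409 and 413 (0.56 ± 0.13). Fat storage genes (2 higher and 1 lower of 20) and fatty acid oxidation genes (1 higher and 3 lower of 23) held small counts in both directions at an unadjusted p below 0.05.

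Eggshell genes were lower with choice by small amounts in 16 of 17 genes, and none of them was called in the test over all probe sets. Such a run of signs was not particular to them. Of 34 cytoplasmic ribosomal protein genes, 32 also had negative differences, and the direction of that list rests on no choice array 2. The 3′ to 5′ signal ratios of eIF-4a and GAPDH, given with the ribosomal and proteasome genes, also separated the groups. All 7 chorion genes had negative differences, 6 with an unadjusted p below 0.05, against 7.44% of all genes lower, and their median was -0.30. Cp7Fc read 3599.9 and 3884 without choice and 2945 and 2779 with choice (-0.39 ± 0.07), and Cp15 read 12908 and 13917 against 9611 and 10607 (-0.41 ± 0.08). Cp18, Cp19, Cp16 and Cp36 differed by -0.30, -0.32, -0.25 and -0.22, with the groups separate in each, and Cp38 by -0.13 with overlapping groups (Cp38 turned to 0.03 without no choice array 2). Their limma adjusted p-values ran from 0.156 to 0.658.

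Of 10 vitelline membrane and other eggshell genes, 4 had an unadjusted p below 0.05, all lower, with a median of -0.24 over the 10. That median was -0.34 without no choice array 1 and -0.089 without no choice array 2, while the chorion median stayed between -0.34 and -0.26 when any 1 array was left out. yellow-g, which acts in hardening the eggshell, read 3926 and 3919 without choice and 2740.5 and 2647 with choice (-0.54 ± 0.06, adjusted p = 0.0905). The related gene yellow-g2 read 3715 and 4493 against 2889 and 2980.2 (-0.48 ± 0.10). The vitelline membrane genes Vm26Ac and Vm32E differed by -0.45 ± 0.07 and -0.77 ± 0.19. These 4 were named for the smallest p-values of the list. Both choice arrays lay below both no choice arrays in 6 of the 10 genes, these 4 among them, against 23.3% of all genes. The brightest members lay near 0: Vm26Aa and Vm34Ca differed by -0.03 ± 0.08 and -0.0027 ± 0.07, with signals of 15793 or more on every array, and with quantile or loess scaling both were slightly positive. The psd and ndl genes, which act in vitelline membrane assembly and in patterning the embryo, differed by -0.16 ± 0.08 and -0.12 ± 0.08.

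Yolk and germline genes gave no such run of lower values. The genes for yolk protein, Yp1, Yp2 and Yp3, differed by -0.03, -0.01 and -0.12, and the yolk receptor gene yl by 0.16, all with unadjusted p-values above 0.05; Yp1 and Yp2 turned positive with quantile or loess scaling. Female germline genes gave 4 higher and 4 lower of 37 at an unadjusted p below 0.05, none called. These were 10.8% each, against 7.08% and 7.44% of all genes. The posterior determinant gene osk read 14220.4 and 13760.5 against 10166 and 10196 on its brightest probe set (-0.46 ± 0.06), while its 2 other probe sets differed by -0.05 and -0.14, so the probe sets differed in size. The piRNA pathway gene aub and the dorsal signal gene grk differed by -0.36 ± 0.09 and -0.28 ± 0.09, and tud, a germ plasm gene, by 0.29 ± 0.07. Jhbp5, of the juvenile hormone-binding protein family by its symbol, read 3015 and 2720.4 against 1969 and 1865 (-0.58 ± 0.08, adjusted p = 0.126), and its relative Jhbp3 differed by 0.45 ± 0.07.

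Whether eggshell genes differed otherwise in sechellia was asked with the difference between the species' choice effects. The first sechellia array with choice was unlike the remaining 7 (10th percentile of signal 81.0 against 10 to 12.2, Bacillus median 126.4). Its bright signals were low, with a 98th percentile of 3237 against 6128 to 6359. The test was therefore made with and without it. Without it the sechellia choice value rests on 1 array, assumed to vary like the others. With 8 arrays limma called 2 of 18769 probe sets (0.0107%), both more negative in simulans (0.0107%) and none more positive (0.00%), and neither an eggshell gene. At an unadjusted p below 0.05 there were 1162 (6.19%), 418 more positive (2.23%) and 744 more negative (3.96%), and 10 of the 17 eggshell genes had an unadjusted p below 0.05, all more negative in simulans. With 7 arrays it called 231 (1.23%), 107 more positive (0.570%) and 124 more negative (0.661%) in simulans, and 14 of the 17 eggshell genes were among the latter. In sechellia, Cp16 read 1139 and 1074 without choice and 3451 and 4470.5 with choice, and in simulans 8666 and 8039 without choice and 7322 and 6698 with choice. Both sechellia choice arrays, the unlike one included, were above the sechellia no choice arrays, the reverse of the order in simulans. The difference for Cp16 was -2.08 ± 0.32 with 8 arrays (adjusted p = 0.172) and -2.27 ± 0.12 with 7 (adjusted p = 0.000105; 2.92e-05 to 0.95 over all alternatives). yellow-g, at 515 and 469 against 1143 and 1921 in sechellia, differed between species by -2.13 ± 0.35 with 8 arrays (adjusted p = 0.193) and -2.51 ± 0.12 with 7 (adjusted p = 0.000105; 3.69e-05 to 0.95 over all alternatives). Over the 17 genes the median choice difference was -0.30 in simulans and 1.71 in sechellia with 7 arrays.

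**Figure D3:**
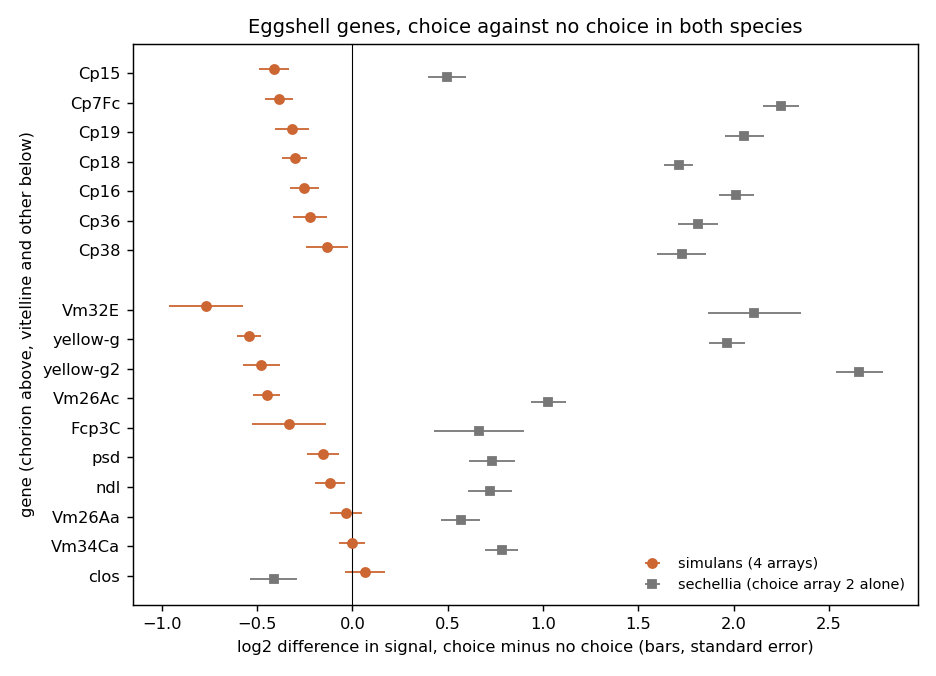
Log2 difference in signal, choice minus no choice, with its standard error, for 7 chorion genes and 10 vitelline membrane and other eggshell genes; circles are simulans (4 arrays) and squares sechellia in the 7-array fit, where choice is 1 array. Of the 17 genes, 16 are negative in simulans and 16 positive in sechellia, and the sechellia differences are larger in size.

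Of the 6 called probe sets, in both fits the unnamed one with the larger rise had the largest difference between the species: sechellia read 3386 and 3179 without choice and 1635 and 3616 with choice. The difference between the species' choice effects was 3.37 ± 0.46 with 8 arrays (adjusted p = 0.114) and 2.80 ± 0.15 with 7 (adjusted p = 0.000105; 1.06e-05 to 0.926 over all alternatives). For Mtk the sechellia signals were 2905 and 3080.3 without choice and 5039 and 7053 with choice, so both species had choice above no choice. Its choice difference was larger in simulans by 1.34 ± 0.30 with 8 arrays (adjusted p = 0.706) and 1.10 ± 0.13 with 7 (adjusted p = 0.00721; 6.25e-05 to 0.95 over all alternatives). With 7 arrays the test also called CG14125 and the CG10096 and CG10097 probe set, by 1.66 ± 0.21 and 1.47 ± 0.22, and not the other unnamed one or Cth; with 8 arrays none of the 6 was called. Levels are not compared between species here, because the probes were designed for another species. The size of a choice difference may also depend on how well the probes match each species, which was not tested.

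Jhbp5 and Obp19c, an odorant-binding protein gene, were lower with choice in simulans and were tested in the same way. Obp19c read 1164 and 962 without choice and 657 and 634 with choice in simulans (-0.71 ± 0.11, adjusted p = 0.133) and 156 and 172 against 152 and 340.1 in sechellia. With 7 arrays the species differed by -1.77 ± 0.21 for Obp19c and -2.43 ± 0.13 for Jhbp5, both called, and with 8 arrays neither was. The maltase genes tobi and Mal-A7 differed in the opposite direction with 7 arrays, where sechellia choice is 1 array, by 1.03 ± 0.14 and 0.92 ± 0.16. With 8 arrays neither was called. In sechellia, tobi read 3511 and 3438 without choice and 1866 and 2478 with choice, below where simulans was above. The 1866 came from the unlike array, and cannot be told apart from the low bright signals of that array. Jonah proteases lay the other way: their median choice difference was 1.26 in sechellia with 7 arrays and 0.14 in simulans.

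Mitochondrial ribosomal protein genes gave 3 higher and 16 lower of 69 at an unadjusted p below 0.05, with a median of -0.11. Over all genes, 7.08% were higher and 7.44% lower at that p. The genes mRpS24, mRpL27 and mRpS30 differed by -0.45 ± 0.09, -0.48 ± 0.10 and -0.34 ± 0.07. Proteasome genes gave 1 higher and 9 lower of 40 with a median of -0.08, among them Prosalpha6 of the core (1743 and 1926 against 1347 and 1405, -0.41 ± 0.08) and Rpn6 of the lid (-0.25 ± 0.07). Subunits of the vacuolar proton pump gave 0 higher and 5 lower of 31, and oxidative phosphorylation genes 3 higher and 7 lower of 76, with medians of -0.08 and -0.0020. Of the 76 oxidative phosphorylation genes, 38 had positive and 38 negative differences. Of the 34 cytoplasmic ribosomal protein genes, 2 had positive and 32 negative differences. Cytoplasmic ribosomal proteins, with 0 higher and 1 lower of 34, had a median of -0.07, which over the 32 members at a signal of 100 or more was -0.0044 with quantile scaling, -0.19 without no choice array 1 and 0.060 without no choice array 2. Over the 64 oxidative phosphorylation genes at that signal the median was -0.079 and 0.031 without the same arrays, so the direction of both lists rests on no choice array 2. No gene of these 5 lists was called. Indices of RNA integrity moved with the groups: the ratio of 3′ to 5′ signal of eIF-4a was 2.27 and 2.33 without choice and 2.57 and 2.51 with choice, and that of GAPDH 0.976 and 1.03 against 1.11 and 1.06, while actin, at 2.51 and 2.93 against 2.78 and 2.78, overlapped. Their part in these small differences, and in the eggshell differences of like size, was not tested.

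Detoxification and chemosensory families showed no called gene. Cytochrome P450 genes gave 8 higher and 1 lower of 80 at an unadjusted p below 0.05, with a median of 0.01. These were 10% and 1.25%, against 7.08% and 7.44% of all genes. Cyp6d5 read 1578 and 1669.6 against 2066 and 2130.3 (0.37 ± 0.07), and Cyp12a4, Cyp6a2 and Cyp6g1, the last known for insecticide resistance, differed by 0.46, 0.30 and 0.18. Glutathione transferases were divided evenly, 3 higher and 3 lower of 34, with GstD3 at -0.33 ± 0.08 and GstE3 at 0.31 ± 0.09. UDP-glycosyltransferases gave 0 higher and 2 lower of 35, and none of 11 carboxylesterases passed an unadjusted p of 0.05. Osiris genes, a cluster that includes candidates for octanoic acid resistance in D. sechellia, gave 2 higher and 0 lower of 23. Osi6 read 284 and 339.9 without choice and 638 and 535 with choice (0.91 ± 0.15, adjusted p = 0.137), and Osi15 316 and 314 against 418 and 484 (0.51 ± 0.14). Both choice arrays lay above both no choice arrays in 7 of the 23 Osiris genes, these among them, and below in 4. Odorant-binding protein genes gave 2 higher and 7 lower of 47 (4.26% and 14.9%, against 7.08% and 7.44% of all genes). Only 15 of the 47 had a signal of 100 or more, and of those 2 were higher and 3 lower. Beside Obp19c these included Obp99c (2409 and 2429 against 1837 and 2129, -0.29 ± 0.09) and Obp57b (0.77 ± 0.30). Odorant receptors (2 higher and 2 lower of 57), ionotropic receptors (3 higher and 1 lower of 53) and gustatory receptors (0 higher and 0 lower of 56) were mostly dim, with 11, 8 and 13 genes at a signal of 100 or more. Cuticle protein genes gave 1 higher and 8 lower of 117, with TwdlB and TwdlM of the Tweedle family at -0.71 ± 0.14 and -0.69 ± 0.15.

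Across 42 gene lists the chorion list had the lowest median and the list of amylases and maltases the highest. Shares of members at an unadjusted p below 0.05 are set beside those over all genes, 7.08% higher and 7.44% lower, dim genes included. Several short lists rest on 1 or 2 genes. In the dimmest 30% of probe sets the median absolute log2 difference was 0.642 and the median standard error 0.736. At mean signals of 421.8 to 1638 these medians were 0.142 and 0.106. A list of bright genes may therefore pass that p more often than all genes do. The shares were not tested against genes of like signal. Juvenile hormone and ecdysone genes gave 6 higher and 2 lower of 45, gut and brain neuropeptides 2 higher and 0 lower of 18, muscle genes 2 higher and 2 lower of 22, DNA replication and cell cycle genes 2 higher and 3 lower of 29, clock genes 1 higher and 1 lower of 11 and the dopamine pathway 0 higher and 1 lower of 18. Hydrocarbon desaturases and elongases and lysozymes had no member past that p.

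**Figure D4:**
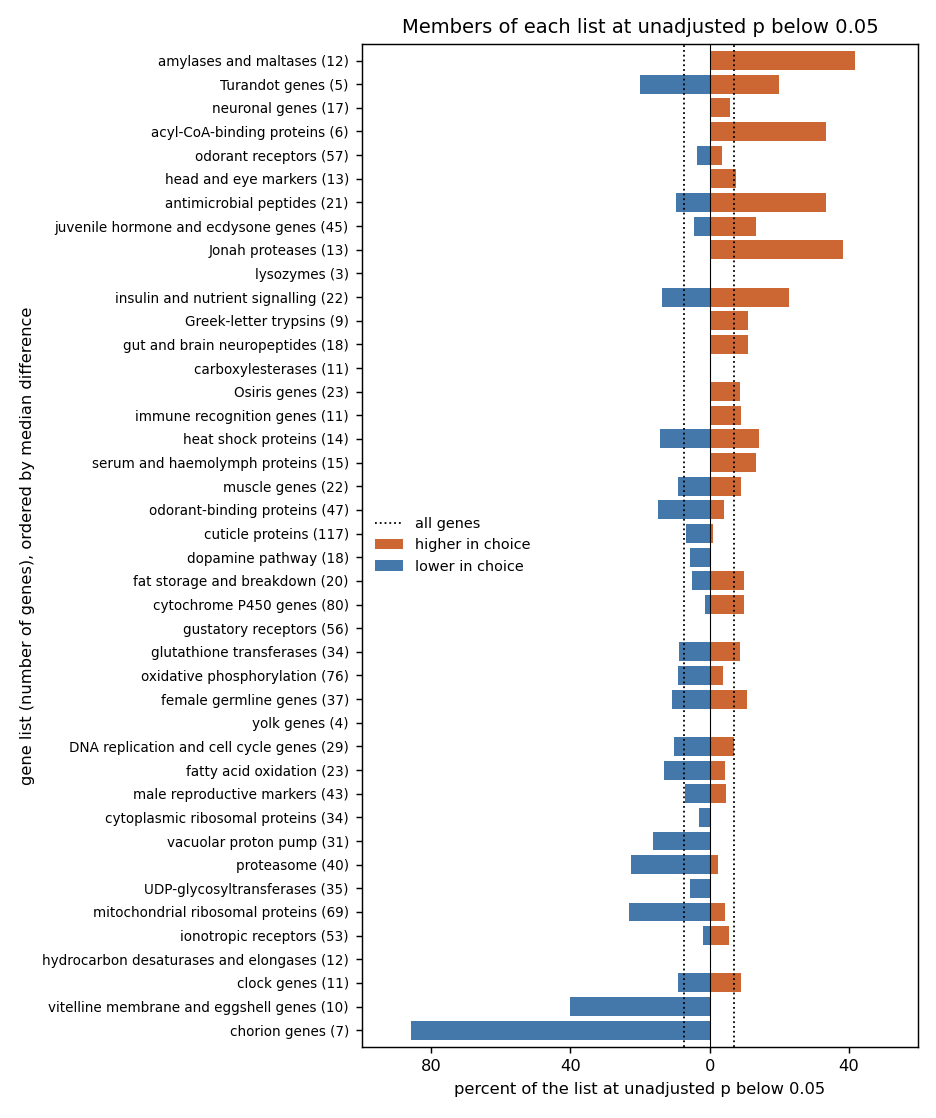
Percent of the genes of each of 42 lists with an unadjusted p below 0.05, higher with choice to the right and lower to the left, lists ordered by median log2 difference; dotted lines mark the same percentages over all 11982 genes (7.08% and 7.44%). Chorion genes reach 85.7% on the lower side, and amylases and maltases 41.7% on the higher side.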

How the data were processed

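The deposited values are probe-set signals, a linear intensity, which the authors made with MAS5, as named in the submitters' processing notes without a version or settings. The deposited trimmed mean, with 2% left out at each end, was 500.0 on every array, so no further scaling was applied. Of 18952 probe sets, 183 controls were left out and 18769 tested. Log2 signal was fitted with limma 3.58.1 in R 4.3.3 (an intensity trend, 4 arrays, 2 residual degrees of freedom, Benjamini-Hochberg adjustment), and the script was tested on simulated data. The difference between species used all 8 arrays, or 7. Genes with several probe sets are given by the brightest. A symbol was assigned to 13647 probe sets, several symbols to 402 and none to 4720. Genes were named as the 15 in each direction with the largest called differences, filled from the smallest p-values, both arrays of the higher group at 100 or more, then up to 4 of each list by p-value, and the fixed tissue markers; the other named genes were chosen after their values were seen. The comparison and the gene lists were chosen with earlier results of these data known. Vmat, Prosap and MstProx each matched the symbol pattern of a list of other function and were left out of that list. The number of arrays limits the precision. Alternatives are given in the closing section.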

Additional observations from a re-analysis of the deposited data

Results flagged for a closer look

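In 2 genes the choice effect differed between the species in the test of that difference over all 8 arrays. Jon65Aiv, a Jonah protease gene, read 13031 and 15083 without choice and 15487 and 15647 with choice in simulans, against 4.6 and 7.9 without choice and 320.4 and 214 with choice in sechellia. The simulans difference minus the sechellia difference was -5.29 ± 0.42 on the log2 scale (limma adjusted p = 0.00533). The sechellia no choice signals lay below the Bacillus background of those arrays, so the size depends on values that are not above background. CG2233 read 5550.1 and 5272 without choice and 4825 and 5362 with choice in simulans, and 298 and 275 against 1834 and 1577 in sechellia. Its difference between species was -2.66 ± 0.27 (limma adjusted p = 0.0258). Leaving out any 1 simulans array left no probe set called in this test, with 409 to 555 at an unadjusted p below 0.05.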

How the results depend on the processing

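The 6 calls (5 higher, 1 lower) became 75 (50 and 25) with the replicate block, 18 (13 and 5) without the dimmest 30%, 7 (7 and 0) with the spread of 7 arrays, 2 (2 and 0) with that of 8 arrays or with log2(signal + 50), and 0 (0 and 0) by limma without an intensity trend, where 1720 probe sets had an unadjusted p below 0.05. Leaving out each replicate gave 2 to 4 calls, 2 to 4 higher and 0 lower. Same-numbered arrays did not deviate together over the probe sets as a whole (r = -0.001 over all probe sets and 0.013 without the dimmest 30%). A correlation over so many probe sets cannot show whether some of them are paired by array number. The difference between species had 2 calls (0 more positive and 2 more negative in simulans), 4 (1 and 3) with the replicate block, and 0 to 8964 when each replicate was left out (0 to 3425 and 0 to 5539); the highest counts came without the second sechellia choice array, and 231 (107 and 124) without the first. Quantile and loess scaling turned the near-zero differences of Vm34Ca (0.075 and 0.035), Vm26Aa (0.021 and 0.0080), Yp1 (0.025 and 0.017) and Yp2 (0.071 and 0.038). Leaving out replicates gave ranges across 0 for Cp38 (-0.30 to 0.029), Vm34Ca (-0.050 to 0.045), Vm26Aa (-0.13 to 0.066), Mal-A5 (-0.088 to 0.050), Yp1 (-0.17 to 0.12), Yp2 (-0.21 to 0.20) and trp (-0.19 to 0.56). The cause of these changes was not tested. Dim probe sets, near the Bacillus background, limit what 2 arrays per group can show.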
